A study of Mus musculus with 18 samples.

Results

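Collagens and laminins, the chains that build the fibrils and sheets of the extracellular matrix, were followed on 18 mouse genome arrays of developing liver, adult liver and the remaining embryo. The members were all probe sets whose single gene symbol in the array's annotation has the form of a collagen chain (Col, number, a, number) or a laminin chain (Lama, Lamb or Lamc, number). The rule took 101 of 45101 probe sets, which stand for 52 of 18193 named genes, 42 collagen chains and 10 laminin chains. Each gene was read from 1 probe set, the one with the highest mean log2 intensity over the 18 arrays, and 33 of the 52 genes had more than 1 to choose from.

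All animals were CD-1 mice. Whole embryonic liver was sampled daily between 10.5 and 14.5 days post conception (dpc) and once more at 16.5 dpc, with 2 arrays a stage and 12 in all, and normal adult liver came from 10-week-old females, on 2 arrays. What was left of the embryo once its liver had been removed, called rest of embryo here, has 1 array for each of the days 10.5 to 12.5 and 1 for 14.5 dpc. Every embryonic sample pooled 5 or more embryos, and nothing in the labels ties arrays of different groups together. No array carries a mutation or a drug, although the protocol text stored with the adult samples describes a partial hepatectomy while their titles call them baseline.

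Collagen is made of 3 chains wound into a triple helix. Fibrillar collagens (types I, III, V, XXIV and XXVII) form the cables of connective tissue, types II, IX, X and XI belong to cartilage, and type IV assembles into the net of the basement membrane, the sheet under epithelia and around vessels, muscle and nerve. Laminins are cross-shaped proteins of 1 alpha, 1 beta and 1 gamma chain that lay down the first layer of that sheet and are read by integrins. Fetal liver is poor in matrix compared with most organs. Its fibrillar collagen is made mainly by stellate cells and portal fibroblasts, and sinusoids lack a continuous basement membrane.

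The stretches just upstream of 3 members are printed because Col1a2 and Col3a1 are fibrillar chains with lower values in later liver, while Col17a1 went the other way. Each is the 250 bases before the RefSeq start on GRCm38.p6, read 5′ to 3′ on the gene's strand. They lie at chr6:4505368-4505617 on the plus strand for Col1a2, at chr1:45311288-45311537 on the plus strand for Col3a1 and at chr19:47692043-47692292 on the minus strand for Col17a1. Capitals mark the TATA box letters TATAAA, the motif CCAAT with its reverse form ATTGG, and the GC box GGGCGG, searched on both strands, and no matches overlapped.
Col1a2: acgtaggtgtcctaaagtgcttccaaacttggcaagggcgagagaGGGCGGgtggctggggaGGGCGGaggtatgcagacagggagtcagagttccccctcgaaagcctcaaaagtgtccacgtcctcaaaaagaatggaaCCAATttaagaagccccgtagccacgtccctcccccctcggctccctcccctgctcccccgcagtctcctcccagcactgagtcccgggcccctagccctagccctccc
Col3a1: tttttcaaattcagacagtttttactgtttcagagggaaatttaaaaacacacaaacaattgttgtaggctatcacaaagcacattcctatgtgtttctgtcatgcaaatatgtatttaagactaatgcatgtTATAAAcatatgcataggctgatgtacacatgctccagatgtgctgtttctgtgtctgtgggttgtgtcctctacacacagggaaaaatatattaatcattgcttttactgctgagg
Col17a1: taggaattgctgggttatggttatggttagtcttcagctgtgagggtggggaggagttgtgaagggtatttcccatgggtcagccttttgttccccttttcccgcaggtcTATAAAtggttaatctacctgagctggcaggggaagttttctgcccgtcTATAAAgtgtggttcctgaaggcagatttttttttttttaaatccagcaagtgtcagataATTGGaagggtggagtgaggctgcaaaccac

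In Col1a2 the matches began 205 and 188 bases (GC boxes) and 109 bases (CCAAT) before the start. Col3a1 held 1 TATAAA, 117 bases before its start, and Col17a1 held TATAAA at 140 and 91 bases and the reversed CCAAT at 31 bases. RefSeq windows were found for 38 of the 52 genes, 42 windows in all. TATAAA was in 5 of these 42 windows, against 12.4% of all 32851 windows. CCAAT was in 14 of 42, against 33.8% of all. The GC box was in 23 of 42, against 32.7% of all, and the median GC content was 59.0% in members, against 52.4% over all windows.

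Probe set intensities were used as deposited, set to no less than 24.8 (the 20th percentile over the whole table, the floor) and put on the log2 scale. A gene was tested where it exceeded 78.0, the 50th percentile, on at least 2 arrays of a fit, which 40 members did in liver and 47 in the comparisons with the rest of the embryo. Called means a limma adjusted p under 0.05 (Benjamini-Hochberg over all genes tested) with a log2 difference of at least 1, or 0.25 log2 per day for a slope. The 12 members not tested in liver were Col4a3, Col6a5, Col7a1, Col8a2, Col9a3, Col16a1, Col19a1, Lama1, Lama3, Lamb2, Lamb3 and Lamc3. Of these, Col4a3, Col6a5, Col19a1, Lama3 and Lamb3 were also not tested against the rest of the embryo. The 2 liver arrays of a stage are separate samples, so the p-values within liver measure the spread between such samples. The rest of the embryo has 1 array a stage. In comparisons with it, the spread also takes in tissue differences that change with stage, and for slopes departures from a straight line.

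The arrays were not alike in every respect. Liver arrays had median intensities of 69.7 to 79.5 and 1216 to 1535 values below 0 each, and rest of embryo arrays had medians of 91.9 to 106.8, a few zeros and no value below 0, so the deposited values come in 2 forms. Replicate liver arrays correlated at r = 0.948 (10.5 dpc) to 0.980 (14.5 dpc) over probe sets. Heart muscle genes, all 10 of the list on the array, summed to 19867 and 10308 in 10.5 dpc liver, 480.0 and 457 at 11.5 dpc, 2062 and 7866 at 12.5 dpc, 417 to 674 from 13.5 dpc on, 544 and 500.3 in adult liver, and 10872 to 21399 in the rest of the embryo. The 5 hepatocyte genes summed to 10155 to 30521 in embryonic liver. In the rest of the embryo they summed to 1922, 3732, 6685 and 12181 by stage, and 5 of 5 were called rising. Their part in the tissue and slope differences was not tested. Afp, the fetal counterpart of albumin, read 13.4 and 7.60 in adult liver. The 3′ to 5′ ratio of Gapdh, a sign of RNA quality, was 2.82 on 1 of the 10.5 dpc liver arrays and 0.744 to 0.886 on the other 13 liver arrays. It was 1.09 to 1.20 on the rest of embryo arrays, highest at 14.5 dpc, so it moves with the tissue contrast and its slopes, and its part in them was not tested.

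Across embryonic liver, Col1a1, Col1a2, Col3a1 and Col5a2 of the interstitial fibrils and Col4a1, Col4a2 and Col4a5 of type IV collagen were lower at 16.5 dpc than at 10.5 dpc, while a few members of other kinds were higher. Of 40 members tested, 10 were called lower and 3 higher, against 6.98% and 10.4% of all 14125 genes (17.4% called either way). The members' median log2 difference was -0.12, beside 0.05 over all genes. By class, 4 of 8 fibrillar chains were lower, 3 of 7 basement membrane collagens, 1 of 6 cartilage chains, 1 of 5 laminins and 1 of 14 other collagens. Median centring moved the all-gene median to -0.05 and gave 11 lower and 2 higher of 41.

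Col1a1, which with Col1a2 makes type I collagen, read 1329.8 and 869 at 10.5 dpc, 422 and 346 at 11.5, 589 and 453 at 12.5, 505 and 542 at 13.5, 580.3 and 415 at 14.5, and 396 and 393 at 16.5 dpc. Only the 10.5 dpc pair stood above the rest, and the later stages overlapped. The 16.5 minus 10.5 dpc difference was -1.45 ± 0.23 log2 (SE, limma adjusted p = 0.000661). By a second probe set of Col1a1 the drop was smaller, with 638 and 517 at 10.5 dpc against 353 and 353 at 16.5 dpc. Col1a2 read 2077 and 1508 at 10.5, 806 and 841 at 11.5, 1026 and 1037 at 12.5, 789.9 and 860.5 at 13.5, 901 and 894 at 14.5, and 723 and 698 at 16.5 dpc. Its pattern was the same, a single high pair at 10.5 dpc, with a difference of -1.32 ± 0.15 (limma adjusted p = 5.79e-05). Col3a1, the type III chain that is laid down with type I in reticular fibres, averaged 1413 ± 30.1 at 16.5 dpc and 3269 ± 686 at 10.5 dpc (SD, n = 2 each), a difference of -1.19 ± 0.18 (limma adjusted p = 0.000448).

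Col5a2, a chain of the type V collagen that seeds type I fibrils, was lower at later stages. Its arrays read 673 and 645 at 10.5 dpc, 339 and 364 at 11.5, 352 and 332 at 12.5, 257 and 264 at 13.5, 253 and 182 at 14.5, and 196 and 162 at 16.5 dpc. The 10.5 dpc pair was highest and the 16.5 dpc pair overlapped only the lower 14.5 dpc array, and the difference between the ends was -1.89 ± 0.16 log2 (limma adjusted p = 7.94e-06). Its usual partner Col5a1 stayed between 401 and 534 on all 12 embryonic arrays, with 441 and 468 at 16.5 dpc against 441 and 500.5 at 10.5 dpc. Col5a3, Col24a1 and Col27a1, the remaining fibrillar chains, had differences of 0.06 ± 0.36, 0.70 ± 0.27 and -0.13 ± 0.19 and were not called.

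**Figure D1:**
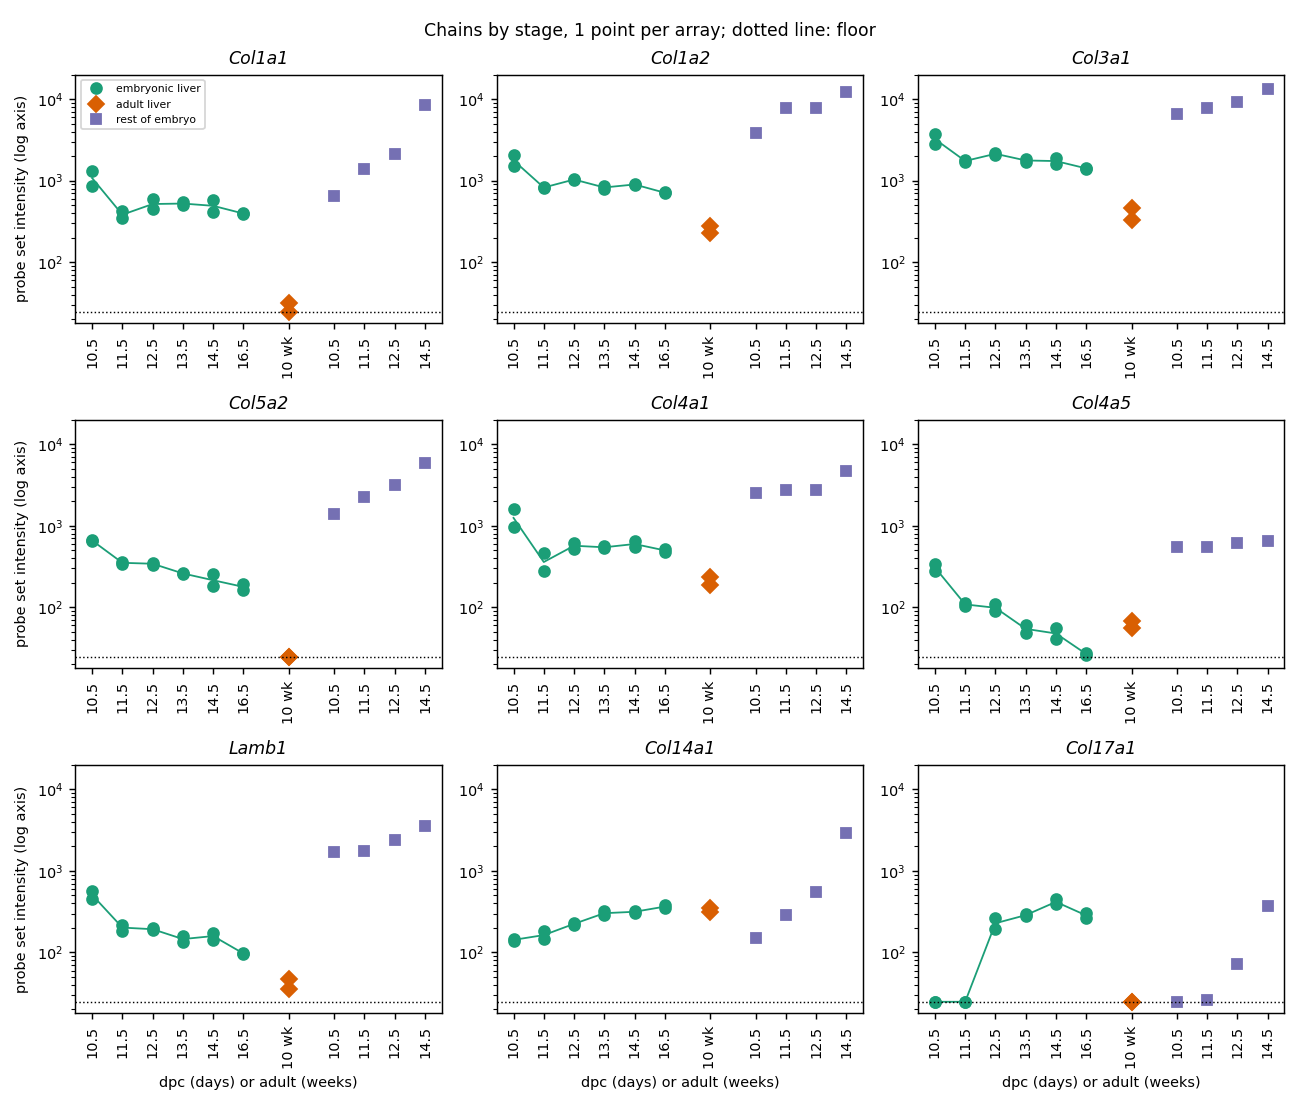
Probe set intensity (log axis) of 9 chains on each array, by stage in dpc for embryonic liver (circles, line through the geometric mean of each pair) and rest of embryo (squares), and at 10 weeks for adult liver (diamonds). The stages are evenly spaced, and values under the floor of 24.8 (dotted line) are drawn on it. Col4a5 and Lamb1 descend through embryonic liver, Col17a1 leaves the floor at 12.5 dpc, and Col1a1 in the rest of the embryo climbs to 8456 at 14.5 dpc.

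Among basement membrane collagens, the common pair Col4a1 and Col4a2 fell together, and Col4a5 fell furthest of the 10 members called lower. Col4a1 read 1608 and 970.3 at 10.5 dpc, 469 and 275 at 11.5, 523 and 618 at 12.5, 560.4 and 529 at 13.5, 657 and 543 at 14.5, and 477 and 520.4 at 16.5 dpc. The drop lay between the first stages, with no further order after 11.5 dpc, and the 16.5 minus 10.5 dpc difference was -1.33 ± 0.27 (limma adjusted p = 0.00314). By a second probe set of Col4a1 the drop was smaller, with 651 and 493 at 10.5 dpc against 261 and 342 at 16.5 dpc. Col4a2 averaged 198 ± 8.01 at 16.5 dpc and 453 ± 101 at 10.5 dpc (SD, n = 2 each), a difference of -1.18 ± 0.17 (limma adjusted p = 0.000248). The genes of this pair overlap on chromosome 8, at chr8:11198423-11312889 for Col4a1 and chr8:11312805-11449287 for Col4a2, and are read away from each other.

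Col4a5, a chain of the type IV collagen of kidney and other specialised basement membranes, read 339 and 279 at 10.5 dpc, 112 and 105 at 11.5, 89.1 and 109 at 12.5, 48.2 and 61.4 at 13.5, 55.9 and 40.8 at 14.5, and 25.7 and 27.8 at 16.5 dpc. The last pair lay just over the floor, and the difference was -3.52 ± 0.21 (limma adjusted p = 7.98e-07). Its size depends on the floor and ran between -3.86 and -2.49 over the alternative settings, all of them called. Its neighbour on the X chromosome, Col4a6, whose gene lies 1274 bases away and is read in the opposite direction, ran between 47.1 and 98.99 in embryonic liver with no call. Col15a1 and Col18a1, which carry the fragments restin and endostatin, differed by -0.48 ± 0.23 and 0.31 ± 0.23. Col4a3 did not reach the level for testing in liver.

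Only 5 of 10 laminins were tested in liver. Lamb1, the beta chain of the early embryonic laminins, read 562 and 458 at 10.5 dpc, 185 and 219 at 11.5, 186 and 199.8 at 12.5, 133 and 160.1 at 13.5, 175 and 144 at 14.5, and 98.7 and 95.4 at 16.5 dpc. Its highest pair was at 10.5 dpc and its lowest at 16.5 dpc, and the difference was -2.39 ± 0.19 (limma adjusted p = 4.88e-06). Lama2, Lama4 and Lama5 were not called, with differences of -0.70 ± 0.25, 1.20 ± 0.73 and 0.13 ± 0.21, and both 10.5 dpc arrays and 1 of the 16.5 dpc arrays of Lama4 were under the floor.

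Lamc1, the gamma chain of most laminins, had probe sets that disagreed. The probe set with the higher mean read 728 and 784 at 16.5 dpc against 300.4 and 466 at 10.5 dpc, a difference of 1.01 ± 0.34 (limma adjusted p = 0.0401), a call kept in 9 of 23 alternative settings and lost, among others, under median centring and quantile normalization. The second probe set read 167 and 127 at 16.5 dpc against 383 and 361 at 10.5 dpc and was called lower, at -1.35 log2. The direction of Lamc1 in embryonic liver is therefore not settled by these arrays.

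Of the cartilage chains, Col11a1 averaged 68.1 ± 0.872 at 16.5 dpc and 176 ± 20.4 at 10.5 dpc, a difference of -1.36 ± 0.32 (limma adjusted p = 0.00635), and Col2a1, Col9a1, Col9a2, Col10a1 and Col11a2 were not called. A second probe set of Col9a1 was lower, at -1.13. Col26a1 was called lower at -1.26 ± 0.42, a call kept in 15 of 23 alternative settings with values as small as -0.59, and a second probe set stood at 0.08.

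Col17a1 and Col14a1 were called higher. Col17a1, a transmembrane collagen of the hemidesmosome that anchors epithelial cells to their basement membrane, read -4.59 and -1.70 at 10.5 dpc, 12.6 and 7.46 at 11.5, 267 and 195 at 12.5, 277 and 297 at 13.5, 447 and 388 at 14.5, and 303 and 266 at 16.5 dpc. All arrays up to 11.5 dpc were under the floor and all later embryonic arrays far above it, so that 16.5 dpc was at least 11.5-fold higher than 10.5 dpc (limma adjusted p = 2.74e-07). Col14a1, a fibril-associated collagen, read 148 and 137 at 10.5, 146 and 182 at 11.5, 229 and 219 at 12.5, 284 and 323 at 13.5, 326 and 304 at 14.5, and 347 and 383 at 16.5 dpc. It climbed with little overlap between neighbouring stages and differed by 1.36 ± 0.14 between the ends (limma adjusted p = 3e-05). The mean of its probe sets gave 0.65, under the size asked for a call.

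**Figure D2:**
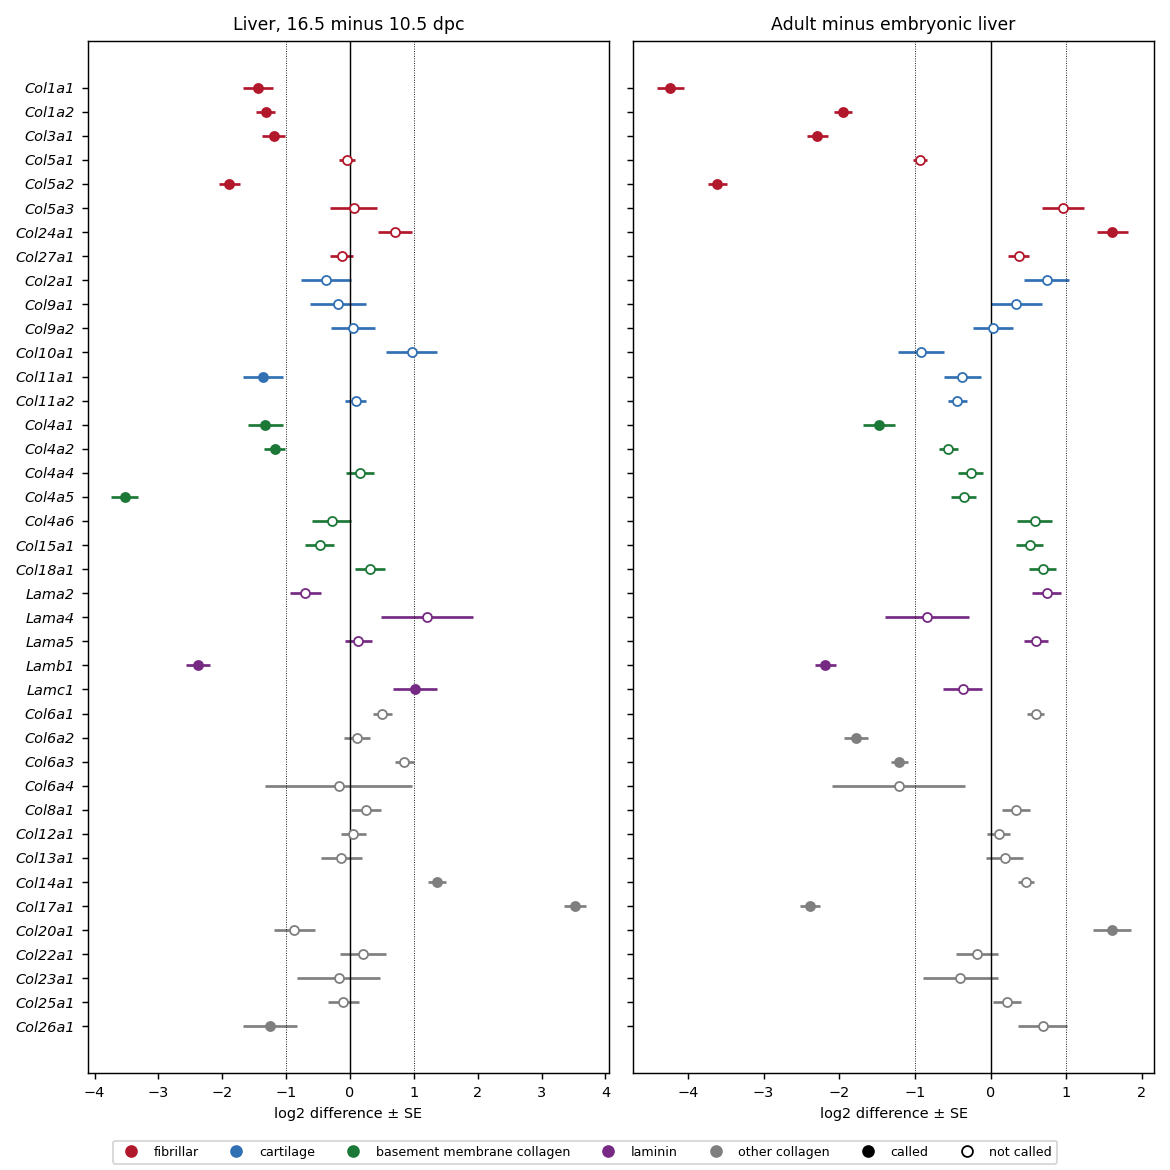
Log2 difference with its standard error for the 40 members tested in liver, 16.5 minus 10.5 dpc on the left and adult minus embryonic liver on the right, coloured by class. Filled points were called, and dotted lines mark 1 log2. The called fibrillar chains lie left of 0 in both panels except Col24a1 on the right, and Col17a1 lies right of 0 on the left panel and left of 0 on the right panel.

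Much of this was already present at 11.5 dpc. At 11.5 against 10.5 dpc, 7 of 40 members were called lower and 0 higher, against 2.69% and 2.97% of all genes (5.66% either way). They were Col4a1 (-1.80 ± 0.27), Col4a5 (-1.504 ± 0.21), Col1a1 (-1.49 ± 0.23), Col11a1 (-1.46 ± 0.32), Lamb1 (-1.33 ± 0.19), Col4a2 (-1.13 ± 0.17) and Col1a2 (-1.10 ± 0.15). Their limma adjusted p-values were 0.00105 to 0.0118. The 10.5 dpc arrays were also the ones with high heart muscle genes, 9 of 10 of which were called lower at 11.5 and at 16.5 dpc, and 5 neural genes summed to 674 and 703 at 16.5 dpc against 2121 and 2159 at 10.5 dpc, with 4 lower and 1 higher. The part of such tissue in the collagen and laminin differences was not tested. Without the 10.5 dpc array of high Gapdh ratio, 4 members were called lower at 11.5 dpc, and at 16.5 dpc 7 were lower and 2 higher. Among these 9 were 8 of the 13 members called at 16.5 dpc with all arrays. Col3a1, Col4a1 and Col4a2 fell just short of 1 log2, and the calls of Col26a1 and Lamc1 were also lost.

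Between 16.5 and 11.5 dpc, where no heart muscle gene of 10 was called, 2 of 40 members were lower and 3 higher, against 2.54% and 6.22% of all genes (8.76% either way). Col4a5 (-2.02 ± 0.21) and Lamb1 (-1.06 ± 0.19) were still lower, with adjusted p-values of 0.00011 and 0.00283 from limma. Higher were Col17a1, at least 11.5-fold, Col14a1 (1.16 ± 0.14) and Col18a1 (1.14 ± 0.23, limma adjusted p = 0.00551). Col18a1 read 947 and 936 at 16.5 dpc against 455 and 399 at 11.5 dpc, its lowest pair, and 768 and 747 at 10.5 dpc. No fibrillar chain was called, with Col5a2 at -0.98 ± 0.16 and Col1a1, Col1a2 and Col3a1 between -0.30 and 0.05. Median centring and quantile normalization each gave 4 lower and 3 higher of 41, and turned the all-gene share of lower calls to 40.1% and 42.9%, against 29.0% as deposited. Leaving out the second of the 11.5 dpc arrays removed the calls of Col18a1 and Lamb1, for 3 calls in all.

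The 8 genes of the mesenchymal and stellate cell list summed to 2230.0 and 2379 at 16.5 dpc against 5200 and 5495 at 10.5 dpc, and 7 of 8 were called lower and 1 higher. Against 11.5 dpc, 5 of these 8 were lower at 16.5 dpc (median -1.29), while 0 of 8 fibrillar chains were called (median 0.03). Red cell genes went the other way: the 4 of that list summed to 11366 and 11534 at 16.5 dpc against 1183 and 845 at 10.5 dpc, with 3 of 4 higher, and to 319 and 397 in adult liver, with 3 of 4 lower against embryonic liver. The part of these cells in the collagen and laminin differences was not tested. In whole tissue, fewer cells of a type and less RNA per cell cannot be told apart.

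Related genes are read against the same 6.98% lower and 10.4% higher of all genes at 16.5 against 10.5 dpc. Of 22 collagen-making genes, 7 were lower, 0 higher and 15 not called. Plod2, a lysyl hydroxylase, fell by 2.14 log2, P3h4, a prolyl hydroxylase partner, by 2.07 and Serpinh1, the collagen chaperone HSP47, by 2.00. Serpinh1 averaged 731 ± 74.1 at 16.5 dpc and 2913 ± 2.91 at 10.5 dpc (SD, n = 2 each). Of 16 other basement membrane proteins, 7 were lower, 0 higher and 9 not called, the lower ones including Pxdn, which crosslinks type IV collagen (-2.54), and Fbln2 (-2.10). Frem1 was under the floor on both 16.5 dpc arrays, at least 4.05-fold lower than at 10.5 dpc. Of 14 matrix receptors, 4 were lower and 1 higher. Mrc2, which takes up collagen, was under the floor at 16.5 dpc, at least 6.58-fold lower, and Ddr2, a receptor for fibrillar collagen, fell by 1.90, while the laminin receptor Bcam was higher (2.17). Of 13 matrix partners, 4 were lower, led by Vcan (-3.16) and Tnc (-2.91), and 2 higher, led by vitronectin (Vtn, 2.92), a plasma protein made by hepatocytes. Of 8 genes of matrix breakdown, 3 were lower (Timp2 by 1.37, Mmp2 by 1.14, Timp3 by 1.12) and 1 higher. Against 11.5 dpc, 16.5 dpc liver had 4 of 22 collagen-making genes lower (P3h4 by 1.21, Plod2 by 1.20), 1 of 16 other basement membrane proteins (Pxdn by 1.17) and 0 higher in either list, beside 2.54% lower and 6.22% higher of all genes.

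**Figure D3:**
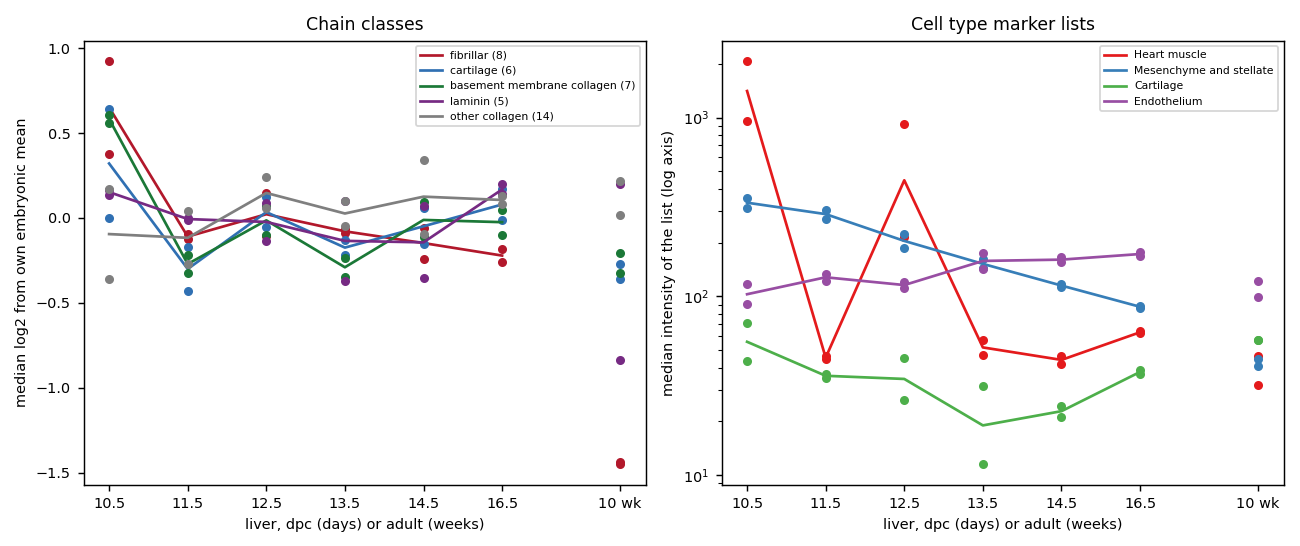
Left, the median over the tested chains of each class of log2 intensity minus the gene's own mean over the 12 embryonic liver arrays, 1 point per array, with lines through stage means. Right, the median intensity (log axis) of 4 lists of cell type markers on the same arrays. The fibrillar points stand at 0.92 and 0.38 at 10.5 dpc and at -1.45 and -1.44 in adult liver, and heart muscle genes are high on the 10.5 and 12.5 dpc arrays.

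Adult liver had much less of the main fibrillar chains than embryonic liver of any stage. Of 40 members, 9 were called lower and 2 higher in adult liver against the mean of the 6 embryonic stages, beside 23.7% and 11.9% of all 14125 genes (35.5% either way). The members' median of -0.22 was close to the all-gene median of -0.21. The fibrillar class stood at a median of -1.44, with 4 of 8 chains lower and 1 higher, and in the other classes 5 of 32 were lower and 1 higher. Leaving out all 10.5 and 12.5 dpc arrays, those with heart muscle genes, kept all 11 calls and gave 10 lower and 3 higher of 38. Quantile normalization gave 10 lower and 5 higher of 41, with an all-gene median of -0.05.

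Col1a1 read 22.7 and 31.5 in adult liver, against a lowest value of 346, a median of 479 and a highest of 1329.8 over the 12 embryonic liver arrays. The groups were far apart, by -4.24 ± 0.18 log2 (limma adjusted p = 6.1e-09). Since 1 adult array was under the floor and the other just above it, the size depends on the floor, and over the alternative settings it ran between -4.58 and -3.26. Col5a2 read 7.57 and 9.79 in adult liver, under the floor, against 162 to 673 with a median of 298 in embryonic liver. It was at least 12.2-fold lower in adult liver (limma adjusted p = 1.18e-09). Col3a1 read 333 and 466 in adult liver against 1392 to 3755 with a median of 1803 in embryonic liver (-2.29 ± 0.14, limma adjusted p = 9.72e-08). Col1a2 read 226 and 274 in adult liver against 698 to 2077 with a median of 877 (-1.95 ± 0.12, limma adjusted p = 7.61e-08).

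By the probe set used, Col5a1 read 257 and 215 in adult liver, under all 12 embryonic values. Its difference of -0.94 ± 0.09 fell just short of the size asked. A second probe set of Col5a1 read 67.3 and 70.5 in adult liver against 174 to 344 in embryonic liver. Another was under the floor on both adult arrays, against 40.7 to 102 in embryonic liver. By these probe sets the drop of Col5a1 was larger than by the one used. Col24a1, a fibrillar chain of bone and eye, went the other way, with 105 and 144 in adult liver against 20.4 to 53.8 in embryonic liver (1.61 ± 0.21, limma adjusted p = 3.92e-05). Among liver arrays only the 2 adult ones exceeded the level for testing. Col24a1 was thus tested only because it is high in adult liver, and its call is no independent support for that direction.

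Type VI collagen forms beaded filaments around cells from 3 chains. Col6a2 read 62.0 and 78.1 in adult liver against 170.1 to 313 in embryonic liver (-1.78 ± 0.15), and Col6a3 read 77.7 and 96.7 against 133 to 257 (-1.20 ± 0.11), while Col6a1 read 332 and 432 in adult liver against 187 to 316 and was not called (0.60 ± 0.11). Col6a5 was under the floor on all 12 embryonic liver arrays and read 76.3 and 126 in adult liver, too few arrays over the limit for a test.

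The remaining adult calls were single chains of different kinds. Lamb1 read 47.5 and 36.0 in adult liver, below the embryonic lowest of 95.4 (-2.18 ± 0.14), and Col4a1 read 238 and 188 in adult liver, below the embryonic lowest of 275 (-1.47 ± 0.21). Col17a1 was under the floor at 18.8 and 20.5 in adult liver, like the 10.5 and 11.5 dpc arrays, and at least 11.5-fold below 16.5 dpc liver (limma adjusted p = 3.28e-08). Col20a1, a fibril-associated chain, read 230.3 and 312 in adult liver against 55.1 to 154 in embryonic liver (1.60 ± 0.25). For Col12a1, not called, another probe set read 172 and 274 in adult liver against 16.5 to 47.4 in embryonic liver. For Lama3, not tested in liver, another probe set read 182 and 318 in adult liver and only negative values in embryonic liver. Against 16.5 dpc liver alone, 9 members were lower and 3 higher in adult liver, beside 22.8% and 10.3% of all genes (33.1% either way). Col4a5, at 55.6 and 67.0 in adult liver against 25.7 and 27.8 at 16.5 dpc, was higher there (1.19 ± 0.21, limma adjusted p = 0.000628). That call was lost with the floor at the 40th percentile and with the mean over probe sets, with a lowest value of 0.15 over the alternative settings. Quantile normalization gave 9 lower and 5 higher and moved the all-gene share of lower calls to 56.3%, against 68.8% as deposited.

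Of 22 collagen-making genes, 9 were lower and 0 higher in adult liver, beside 23.7% lower and 11.9% higher of all genes. Serpinh1 (-2.38), Lox, which crosslinks collagen (-2.04), and P3h4 (-1.98) led them. Other basement membrane proteins had 5 of 16 lower, led by Nid2 (-2.95), Npnt (-1.88) and Fbln2 (-1.69), and 1 higher. Matrix partners had 6 of 13 lower and 3 higher, among them Postn (-2.13), Lum (-1.83) and Vtn (1.94). Receptors had 2 of 14 lower, the laminin receptor chain Itga6 (-2.38) and Bcam (-1.38), and 2 higher, led by Itgb4 (1.97), at the floor on 11 of 12 embryonic arrays, and none of 8 breakdown genes was called. The mesenchymal and stellate list summed to 1103 and 1177 in adult liver against 2230.0 to 5495 in embryonic liver, with 6 of 8 genes lower.

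Set against the rest of the embryo at the 4 matched stages, embryonic liver was lower in most chains as deposited. Of 47 members tested, 35 were called lower and 4 higher in liver, against 51.2% and 14% of all 14895 genes (65.1% either way). This contrast crosses the 2 forms of deposited values, and the median gene itself stood at -1.04, so each difference is to be read against that shift. Col7a1, Col8a2, Col9a3, Col16a1, Col24a1, Lama1, Lamb2 and Lamc3, all called lower, exceeded the level for testing on no liver array of these stages. They were tested only because they are high in the rest of the embryo, and their calls are no independent support for that direction. The all-gene shares were taken under the same rule. The members' median was -1.82, and fibrillar chains had a median of -2.05, basement membrane collagens -2.12, cartilage chains -1.84, laminins -1.81 and other collagens -1.35. Quantile normalization, which gives every array 1 distribution, moved the all-gene median to -0.11. It left 24 of 47 members lower and 4 higher, with a members' median of -1.002, and the share of lower among all called genes was 49.6%, against 78.6% as deposited. Median centring gave 29 lower and 4 higher, with an all-gene share of 67.5%. With quantile normalization 5 of 8 fibrillar chains were still lower (as deposited 8 of 8), 4 of 7 basement membrane collagens (6), 4 of 7 cartilage chains (5), 4 of 8 laminins (6) and 7 of 17 other collagens (10).

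Col2a1, the fibrillar chain of cartilage, read 78.8 to 266 on the 8 liver arrays of these stages, against 2174, 2999, 3687 and 6642 in the rest of the embryo, earliest stage first. The tissues did not overlap and differed by -4.73 ± 0.34 (limma adjusted p = 2.52e-07), 3.69 below the median gene. Col4a2 differed by -3.19 ± 0.23, with 196 to 524 in liver against 1972, 2144, 2344 and 3548 in the rest of the embryo. Lamb1 differed by -3.25 ± 0.32, with 144 to 562 in liver against 1701, 1748, 2419.7 and 3511. Lama1, the alpha chain of the first embryonic basement membranes, read 22.4 to 75.0 in liver against 442, 304, 233 and 126 in the rest of the embryo (-2.56 ± 0.19).

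The chains of interstitial fibrils were also lower in liver, and 1 of them overlapped by the probe set used. Col1a2 read 806 to 2077 on the 8 liver arrays against 3889, 7834, 7737 and 12317 in the rest of the embryo (-2.77 ± 0.32), and Col3a1 read 1583 to 3755 against 6512, 7781, 9161 and 13277 (-2.05 ± 0.23). Col5a2 read 182 to 673 in liver against 1408, 2259, 3118 and 5883 in the rest of the embryo (-2.94 ± 0.42). Col1a1 read 346 to 1329.8 in liver against 649, 1392, 2143 and 8456, so the earliest rest of embryo array lay within the liver values, and its difference of -1.82 ± 0.55 (limma adjusted p = 0.00968) was 0.79 below the median gene. Quantile normalization put Col1a1 at -0.67 ± 0.56, which was not called (limma adjusted p = 0.304). By its second probe set Col1a1 did not overlap, with 313 to 638 on the 8 liver arrays against 1105, 1843, 2790 and 7997 in the rest of the embryo.

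Col8a2, a short-chain collagen of the cornea and vessel wall, was under the floor on 7 of 8 liver arrays against 259, 519, 802 and 1312 in the rest of the embryo, with differences between -5.25 and -3.48 over the alternative settings. Lama4, the alpha chain of vessel laminins, was under the floor on 5 of 8 liver arrays, against 273, 334, 543 and 1358, with differences between -4.22 and -1.51. The size of both rests on the floor. Both tissues held Col18a1, at 399 to 953 in liver against 1997, 1642, 1655 and 1937 in the rest of the embryo, and its difference of -1.41 ± 0.12 was 0.37 below the median gene. Of the 8 members not called, Col17a1 (0.44 ± 0.25) and Lama5 (0.29 ± 0.19), the alpha chain of mature epithelial basement membranes, had values in both tissues that overlapped.

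**Figure D4:**
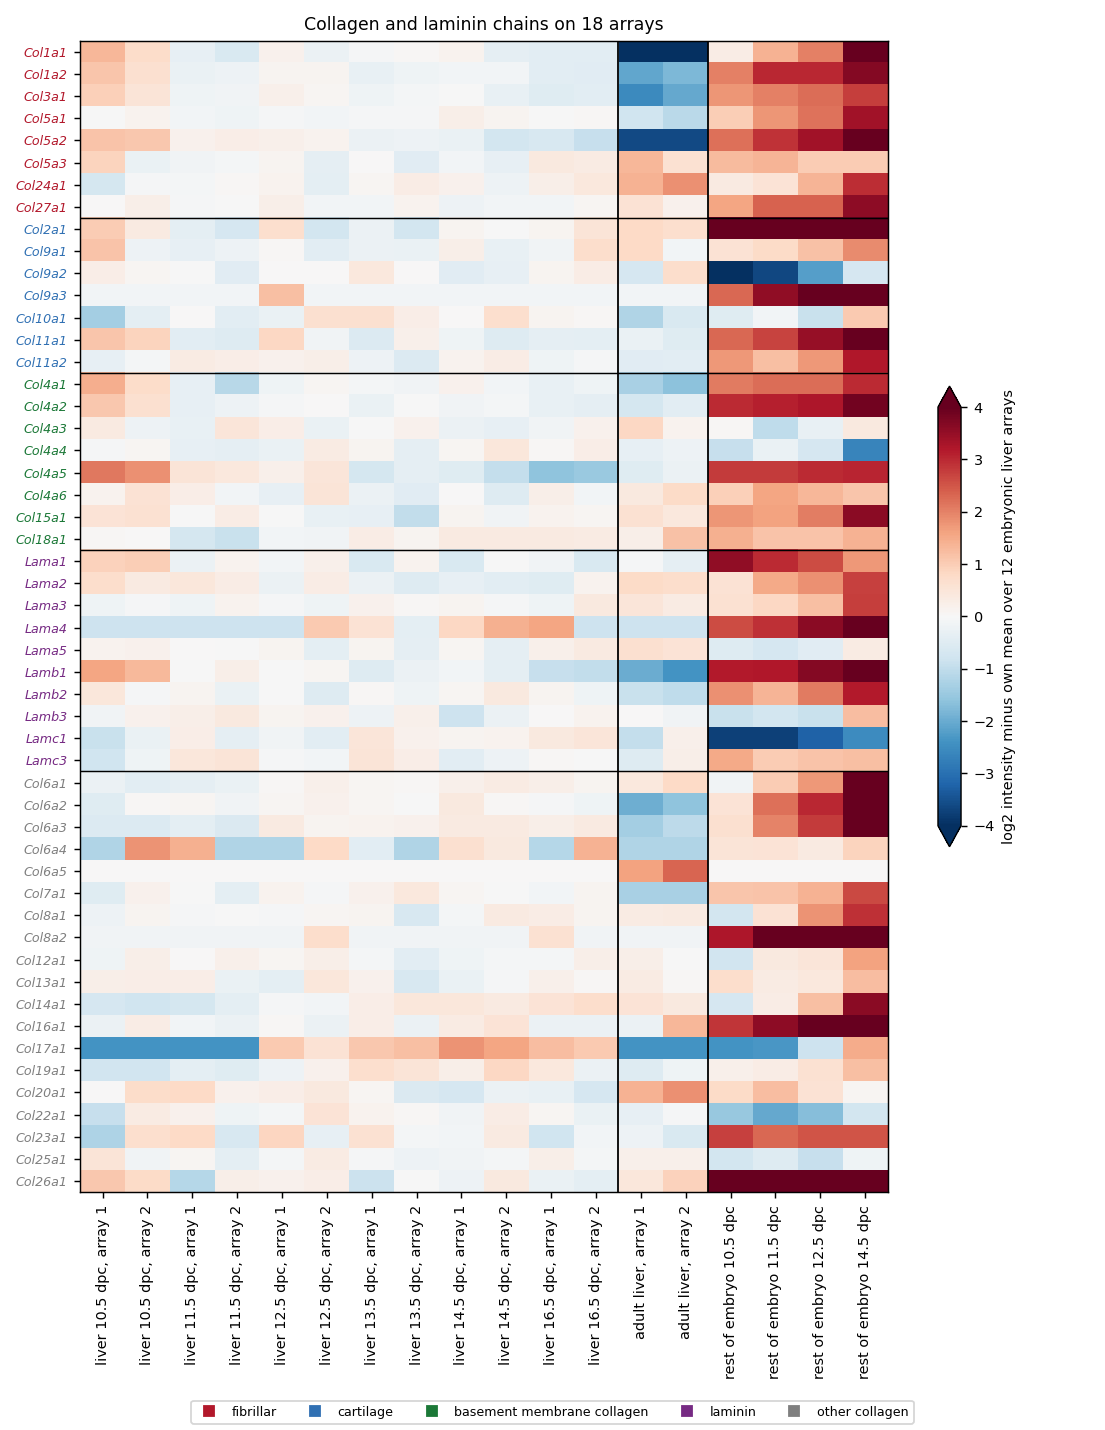
Log2 intensity of all 52 members on the 18 arrays, minus each gene's own mean over the 12 embryonic liver arrays, with values under the floor set to it and colours ending at 4 log2 either way. Rows are grouped by class, and columns run by stage through liver, adult liver and the rest of the embryo, the last on another form of values. Most rows are red in the rest of the embryo, with Lamc1 and Col9a2 blue there.

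Lamc1, Col9a2, Col22a1 and Col4a4 were called higher in liver, all under the same limit of form. Col9a2, a chain of the cartilage collagen type IX, read 1045 and 930.1 in liver at 10.5 dpc, 876 and 643 at 11.5, 885 and 894 at 12.5, 1177 and 886 at 13.5, 643 and 696 at 14.5, 952 and 1089 at 16.5 dpc, and 556 and 1439 in adult liver. Rest of embryo arrays gave 22.3, 70.3, 192 and 551 by stage. No liver array fell below the highest of these, and the difference was 2.81 ± 0.58 (limma adjusted p = 0.000892). Its partners differ from it: Col9a3 stayed under the floor on all liver arrays but 1, of 12.5 dpc at 62.3, against 131, 311, 1016 and 2867 in the rest of the embryo, and Col9a1 differed by -1.11 ± 0.30. With quantile normalization that probe set of Col9a1 stood at the zero line, while a second one read 62.5 to 264 on the matched liver arrays against 2683, 2890.3, 3635 and 5777 in the rest of the embryo, a difference of -4.92 ± 0.33.

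For several members the probe set decided the direction of the tissue difference. Of the genes called in this contrast, 4 had a second probe set called the other way. Lamc1 was 3.11 ± 0.19 by the probe set used, with liver at 300.4 to 661 on the 8 matched arrays against 42.1, 41.8, 58.7 and 96.3 in the rest of the embryo. Its second probe set gave -1.90, with 702, 548, 819 and 1674 in the rest of the embryo. Col22a1 was 1.501 by the probe set used and -3.03 by another, Col26a1 -4.09 and 1.73, and Col4a6 -1.17 and 1.73. These 4 genes have no settled direction between the tissues. Col25a1 was not called by the probe set used, but another was called lower in liver at -2.73. It read 43.3 to 97.1 on the matched liver arrays against 300 to 657 in the rest of the embryo. Col12a1 was also not called. Another of its probe sets read 16.5 to 47.4 in matched liver against 136 to 2920 in the rest of the embryo, and a further one 46.6 to 74.2 against 0.0702 to 4.59. For Lama4, Col5a3 and Col14a1, called lower in liver, a probe set too low for a test stood mostly higher there. On the matched liver arrays these read 17.5 to 73.2, 42.7 to 68.5 and 21.3 to 54.6. In the rest of the embryo they read 0.735 to 17.8, 17.0 to 35.3 and 0 to 11.4. For Col4a4, the call of higher in liver was kept in 16 of 21 alternative settings. Its other probe sets, mostly near or under the floor, did not stand higher there. On the matched liver arrays they read 13.5 to 29.7 and -1.85 to 38.4, against 19.3 to 49.8 and 18.5 to 72.4 in the rest of the embryo.

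Among related genes, called lower in liver were 20 of 24 collagen-making genes, 13 of 16 other basement membrane proteins, 11 of 13 matrix partners, 7 of 13 receptors and 5 of 9 breakdown genes, with 1, 0, 2, 1 and 0 higher, beside the same 51.2% and 14% of all genes.

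Within the rest of the embryo, whose 4 arrays share 1 form, collagens of connective tissue rose steeply with stage. Of 47 members, 23 were called with a rising slope and 2 with a falling one, against 6.78% and 1.1% of all 14895 genes (7.88% either way). The members' median slope was 0.40 log2 per day, beside 0.02 over all genes. Rising slopes were called for 5 of 8 fibrillar chains, 4 of 7 cartilage chains, 10 of 17 other collagens, 3 of 8 laminins and 1 of 7 basement membrane collagens. With 1 array a stage, the spread behind these tests is shared with the liver arrays. The 14.5 dpc array carried most of them: without it 6 members were called rising and 0 falling. Calls over all genes shrank as well, to 43 rising and 1 falling of 14714. Median centring gave 21 rising and 1 falling, and the all-gene share of falling calls moved to 28.3%, against 13.97% as deposited.

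The type VI chains rose together. Col6a1 read 229, 509, 839 and 4691 in order of stage, 20.5-fold over the span (1.08 ± 0.06 log2 per day, limma adjusted p = 1.51e-06). Col6a2 read 346, 1093, 1923 and 6866 (1.04 ± 0.08), and Col6a3 read 311, 791, 1390.2 and 4553 (0.94 ± 0.07). Each stage lay above the one before it in all 3 chains, and all 3 slopes were still called without the 14.5 dpc array. Col14a1 climbed through 150.3, 289, 551 and 2886 (1.07 ± 0.05), and Col8a1, of the network around vessels and in the eye, through 64.1, 160, 366 and 802 (0.90 ± 0.08), and both were also called without that array, as was Col9a2.

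Col1a1 rose through 649, 1392, 2143 and 8456 (0.91 ± 0.15, limma adjusted p = 0.00324), 13.0-fold over the span. Col5a2 (0.51 ± 0.07), Col5a1 (0.58 ± 0.05), Col24a1 (0.68 ± 0.10) and Col27a1 (0.47 ± 0.06) were also called. Col1a2 read 3889, 7834, 7737 and 12317 and Col3a1 6512, 7781, 9161 and 13277, both highest at 14.5 dpc but with slopes not called. Among cartilage chains, Col9a3 (1.12 ± 0.15), Col9a2 (1.11 ± 0.09), Col11a1 (0.66 ± 0.16) and Col11a2 (0.42 ± 0.11) were called. The 7 cartilage markers fixed as a list summed to 2166, 2580.4, 3802 and 8335 on the same arrays, and 5 of 7 were called rising. Col17a1 read 13.4, 25.9, 72.4 and 366 (1.04 ± 0.23, limma adjusted p = 0.0155), climbing here as in embryonic liver.

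The falling pair was Lama1, at 442, 304, 233 and 126 from 10.5 to 14.5 dpc (-0.45 ± 0.11, limma adjusted p = 0.0208), and Col4a4, at 80.6, 128, 96.2 and 15.7 (-0.49 ± 0.14, limma adjusted p = 0.0442). Lama1 stepped down at every stage, and the slope of Col4a4 rested on its 14.5 dpc value. The Col4a4 call was kept in 5 of 21 alternative settings, and its other probe sets, at 49.8 and 72.4 on the 14.5 dpc array against 28.8 and 23.8 on the 10.5 dpc array, did not fall. The other laminin alpha chains moved up or were not called: Lama2 read 104, 201, 245 and 461 (0.51 ± 0.08) and Lama4 read 273, 334, 543 and 1358 (0.60 ± 0.16, a call kept in 13 of 22 alternative settings). Collagen-making genes rose in 12 of 24, led by Lox (0.9999), Loxl1 (0.55) and Crtap (0.53), with none falling. Matrix partners rose in 7 of 13, led by Acan (0.99), Dcn (0.85) and Fmod (0.78), other basement membrane proteins in 4 of 16, breakdown genes in 3 of 9 and receptors in 1 of 13, beside 6.78% of all genes.

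**Figure D5:**
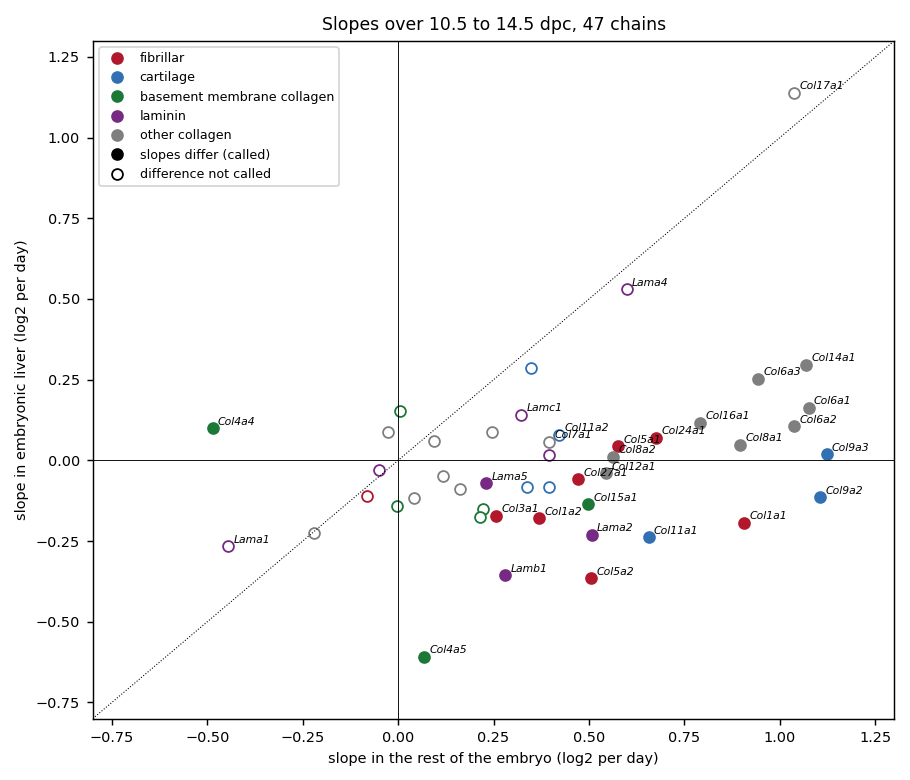
Slope over 10.5 to 14.5 dpc in log2 per day for the 47 members tested, in the rest of the embryo (horizontal) and in embryonic liver (vertical), coloured by class, with equal slopes on the dotted line. Filled points had slopes that differed between the tissues. Most filled points lie below the dotted line, at positive slopes in the rest of the embryo and between -0.61 and 0.30 in liver, and Col17a1 lies near the line at the upper right.

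The slopes themselves differed between liver and the rest of the embryo in 24 of 47 members, tested as the interaction of tissue and day. In 23 the liver slope was lower and in 1 it was higher, against 8.95% and 5.09% of all genes (14% either way). By class, the liver slope was lower in 7 of 8 fibrillar chains, 3 of 7 cartilage chains, 2 of 7 basement membrane collagens, 3 of 8 laminins and 8 of 17 other collagens. Col1a1 sloped at -0.19 per day in liver against 0.91 in the rest of the embryo, a difference of -1.10 ± 0.19 (limma adjusted p = 0.00342). Col5a2 sloped at -0.37 in liver against 0.51, and Col4a5 at -0.61 in liver against 0.07. Col14a1 and Col6a3 climbed in both, at 0.30 and 0.25 per day in liver against 1.07 and 0.94 in the rest of the embryo. Col17a1 sloped at 1.14 in liver against 1.04, and its difference was not called.

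Of the related lists, the liver slope was lower in 17 of 24 collagen-making genes, 6 of 16 other basement membrane proteins, 7 of 13 matrix partners, 4 of 13 receptors and 5 of 9 breakdown genes, and higher in 1 matrix partner, beside 8.95% lower and 5.09% higher of all genes.

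The interaction also rested on the 14.5 dpc array of the rest of the embryo, without which 4 members were called, all with the lower slope in liver. Over all 14714 genes then tested, 36 had the lower and 8 the higher slope in liver. Median centring and quantile normalization each gave 22 lower and 1 higher, and median centring moved the all-gene share of lower calls to 53.1%, against 63.8% as deposited. Leaving out the 10.5 and 12.5 dpc liver arrays, those with heart muscle genes, gave 22 lower and 1 higher.

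Some members lie side by side in the genome. Col3a1 and Col5a2, 24624 bases apart at chr1:45311538-45349706 and chr1:45374331-45503282, were both lower at 16.5 dpc and in adult liver. Col6a2 and Col6a1, 85161 bases apart on chromosome 10, stood at -1.78 and 0.60 log2 in adult against embryonic liver. Col4a5 and Col4a6 on the X chromosome stood at -3.52 and -0.29 log2 at 16.5 against 10.5 dpc.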

How the data were processed

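RNA of 14 liver and 4 rest of embryo samples was hybridised to Affymetrix Mouse Genome 430 2.0 arrays. The deposited values are probe set intensities on a linear scale, already summarised by the authors; no label or header used here names the scaling method. Liver values run below 0 and rest of embryo values do not, so the authors' intensities come in 2 forms, and no detection calls were used. Stage was taken from the sample source, since the age label of later livers repeats 10.5 dpc.

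Values under the floor of 24.8 were set to it and put on the log2 scale, with no further scaling. Fits used limma 3.58.1 in R 4.3.3 (lmFit, eBayes with intensity trend) with Benjamini-Hochberg adjustment over all genes: 1 over the 14 liver arrays with a mean per stage, 1 over the 12 arrays of the 4 matched stages with stage and tissue, and 1 over the same arrays with a slope per tissue. The fits were tested on simulated data with 200 changed genes. A probe set at the floor throughout a group gave a bound on the fold.

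Of 45101 probe sets, 34945 had 1 gene symbol, 932 several and 9160 none; 64 were controls. The members, marker lists and related lists were chosen with earlier results of these data known. Any member could be named, and from each related list up to 3 called genes with the largest difference.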

Additional observations from a re-analysis of the deposited data

Results flagged for a closer look

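The difference between 2 tissues in the same trend picked out 24 members: over 10.5 to 14.5 dpc, the slope of liver minus the slope of the rest of the embryo, in log2 per day, differed from 0 in the interaction test (limma, adjusted over all genes). Among fibrillar chains the differences were Col1a1 (-1.10), Col5a2 (-0.87), Col24a1 (-0.61), Col1a2 (-0.55), Col5a1 (-0.53), Col27a1 (-0.53) and Col3a1 (-0.43). Among cartilage chains the differences were Col9a2 (-1.22), Col9a3 (-1.10) and Col11a1 (-0.89). Among laminins the differences were Lama2 (-0.74), Lamb1 (-0.64) and Lama5 (-0.30). Among other collagens the differences were Col6a2 (-0.93), Col6a1 (-0.91), Col8a1 (-0.85), Col14a1 (-0.77), Col6a3 (-0.69), Col16a1 (-0.68), Col12a1 (-0.59) and Col8a2 (-0.55). Among basement membrane collagens the differences were Col4a5 (-0.68) and Col15a1 (-0.63). Col4a4 (0.59), a basement membrane chain, was the 1 member with the higher slope in liver. These calls rest largely on 1 array: without the 14.5 dpc rest of embryo array 4 members were called, beside 36 lower and 8 higher of all 14714 genes. Lama5 kept its call in 7 of 22 alternative settings. No group had enough arrays of 1 stage for a search for single outlying arrays.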

How the results depend on the processing

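Under up to 24 alternatives per comparison (2 scalings, 2 other floors, no filter, 2 treatments of probe sets, no trend, the replicate block, the liver arrays rich in heart genes left out, and each array left out in turn), 3053 values of called members were recomputed. Of these, 2858 kept their direction and call, 189 kept the direction alone and 6 turned. Col25a1, not called between liver and rest of embryo, turned to -1.06 with the mean over its probe sets. That mean also turned Lamc1 at 16.5 against 10.5 dpc (-0.17) and Col4a6 between the tissues (0.28), and quantile normalization put Col9a1 at 0.0025. Without the 14.5 dpc rest of embryo array the slopes of Col11a2 and Col4a4 turned, as did the slope difference of Col4a4. Over all left-out arrays these values ran between -0.0086 and 0.68, between -0.81 and 0.13, and between -0.029 and 0.91.

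Leaving out each array in turn gave 9 to 14 called members at 16.5 against 10.5 dpc (13 in all arrays), 4 to 10 at 11.5 against 10.5 dpc (7), 3 to 6 at 16.5 against 11.5 dpc (5), 11 to 12 in adult against embryonic liver (11), 12 to 14 in adult against 16.5 dpc liver (12), 33 to 39 in liver against rest of embryo (39), 6 to 29 for slopes in the rest of the embryo (25) and 4 to 25 for slope differences (24). The mean over probe sets gave 2 calls at 16.5 against 11.5 dpc, and the cause was not tested.

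Replicate numbers did not pair the liver samples: over 21 pairs of groups, same-numbered deviations correlated at -0.35 to 0.25, above 0.1 in 5. With the replicate number as a block, 12, 9 and 5 members were called in the 3 contrasts of embryonic stages, 11 and 13 in those of adult liver, 36 between the tissues, 23 for slopes in the rest of the embryo and 24 for slope differences. Values near the floor of 24.8 carry no order, and with 1 or 2 arrays a group the number of arrays limits the precision.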
